A study of Mus musculus with 4 samples.

Results

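Syndecans and glypicans are the cell surface proteoglycans that carry heparan sulfate. The 9 genes described here are the syndecans *Sdc1*, *Sdc2*, *Sdc3* and *Sdc4* and the glypicans *Gpc1*, *Gpc2*, *Gpc3*, *Gpc4* and *Gpc6*. They were chosen by gene symbol out of 45802 symbols in the deposited table. A value was listed in all 4 libraries for 8 of the 9 members and for 14415 genes of the whole table. *Gpc3* had a value in 2 libraries and was left out of all tests.

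The libraries were made from total RNA of mouse periosteal cells, the cells of the thin tissue that covers bone. All 4 came from male *Pdgfra*-mTmG mice of 9 to 10 weeks, which had received tamoxifen on 5 days (150 mg/kg each day) and whose femurs and tibias were digested 14 days later. Tamoxifen activates a Cre recombinase driven by *Pdgfra*, and cells with Cre activity then switch permanently from membrane tdTomato to membrane GFP. After 1 passage with 10 ng/mL bFGF, cells without CD31, CD45 and Ter119 were sorted into 2 PDGFRα reporter+ (GFP) and 2 PDGFRα reporter- (tdTomato) samples. The reporter therefore marks cells in which the *Pdgfra* driver was active when tamoxifen was given, not the *Pdgfra* level at harvest. Each sample was a pool of 3 to 6 mice according to the labels, and the methods give a larger number. The labels do not say whether the samples of 1 population came from separate cultures, and p-values measure only the spread between these libraries.

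The values are log2 expression values after quantile normalisation, with a median of 1.48, an upper quartile of 3.00 and a highest value of 11.73 in each library. A blank means that no signal was listed. The table names the libraries of each population by the numbers 2 and 3, and the sample labels number the replicates 1 and 2, so that libraries are named here by population and table number. Between 15423 and 15605 genes had a value in a library, and the sequencing depth is unknown. The correlation across genes, which are not independent replicates, was 0.984 and 0.982 between the populations at the same number. It was 0.952 between the reporter+ libraries and 0.957 between the reporter- libraries. *Pdgfra* itself had values of 7.78 and 7.62 in the reporter+ libraries and 7.87 and 7.44 in the reporter- libraries, with overlapping populations. The 10 stromal markers examined, among them *Pdgfra*, *Col1a1* and *Prrx1*, had a value in all 4 libraries.

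Heparan sulfate is a long sulfated sugar chain that is built on a core protein and binds growth factors, chemokines and matrix proteins. Syndecans span the membrane and have a short cytoplasmic tail that binds PDZ proteins and, in syndecan-4, protein kinase Cα. Glypicans have no tail and are held at the surface by a lipid anchor (GPI), from which the enzyme Notum can release them. Both families act as co-receptors for FGF, Wnt, BMP and Hedgehog ligands in skeletal tissues. *Sdc4* encodes the syndecan of focal adhesions. *Gpc3* is known from the overgrowth seen in people who lack it, and *Gpc6* from short limbs.

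The promoters of 3 members are shown because these genes cover the range of the data. *Sdc4* had the highest values, *Sdc3* differed most between libraries, and *Gpc3* was close to or below detection. Each sequence is the 250 bases before the gene start in RefSeq (GRCm38.p6), 5′ to 3′ on the strand of the gene, with GC boxes (GGGCGG on either strand, so also CCGCCC) in capitals. The window of *Sdc4* is chr2:164443189-164443438 on the minus strand, that of *Sdc3* is chr4:130792287-130792536 on the plus strand and that of *Gpc3* is chrX:52613975-52614224 on the minus strand.
Sdc4: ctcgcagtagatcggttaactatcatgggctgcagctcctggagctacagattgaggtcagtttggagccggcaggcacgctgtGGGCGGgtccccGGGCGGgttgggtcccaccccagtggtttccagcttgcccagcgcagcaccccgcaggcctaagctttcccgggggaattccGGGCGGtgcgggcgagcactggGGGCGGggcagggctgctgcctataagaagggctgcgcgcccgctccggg
Sdc3: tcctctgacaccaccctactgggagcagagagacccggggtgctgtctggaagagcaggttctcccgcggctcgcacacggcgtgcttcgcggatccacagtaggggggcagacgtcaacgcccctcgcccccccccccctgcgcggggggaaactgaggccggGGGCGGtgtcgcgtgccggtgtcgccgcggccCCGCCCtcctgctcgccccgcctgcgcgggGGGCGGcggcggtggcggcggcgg
Gpc3: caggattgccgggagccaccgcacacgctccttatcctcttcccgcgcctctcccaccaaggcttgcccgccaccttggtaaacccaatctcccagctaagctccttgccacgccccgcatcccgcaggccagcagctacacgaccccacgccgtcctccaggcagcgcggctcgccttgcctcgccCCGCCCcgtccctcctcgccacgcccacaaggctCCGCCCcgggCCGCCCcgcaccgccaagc

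A promoter was found in the RefSeq table for 6 of the 9 members, all but *Sdc2*, *Gpc1* and *Gpc6*. For *Gpc2* the window (chr5:138279938-138280187, minus strand) overlaps the gene, whose position ends at 138280026, and so does not lie wholly before the gene. A GC box was present in each of the 6, with 4 in *Sdc4*, 3 each in *Sdc1*, *Sdc3*, *Gpc2* and *Gpc3*, and 1 in *Gpc4*. Of 32851 RefSeq promoters of the same length, 32.7% hold at least 1. The letters TATAAA (12.4% of all promoters) and TGANTCA, an AP-1 site (6.75%), were in 0 of the 6 windows on either strand. G and C made up 66.0% (*Sdc1*) to 76.4% (*Sdc3*) of the 6 windows, against a median of 52.4% over all promoters. The motif counts were not adjusted for this content. The number of CpG dinucleotides was 32 in *Sdc3*, 25 in *Gpc3*, 19 in *Sdc4* and in *Gpc2*, 18 in *Gpc4* and 10 in *Sdc1*, against a median of 6 over all promoters. *Sdc3* and *Gpc3* thus have the most CpG-rich windows of the 6, although the former was well expressed and the latter nearly undetected.

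Among the syndecans, *Sdc4* (NCBI Gene 20971, chr2:164424247-164443188, minus strand) had the highest values. Its log2 values were 7.39 and 7.18 in the reporter+ libraries numbered 2 and 3, and 7.04 and 7.02 in the reporter- libraries numbered 2 and 3. *Sdc4* lay at the 98.8th to 99.0th percentile of the listed genes of each library. The populations did not overlap for this gene, with both reporter+ libraries above both reporter- libraries.

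*Sdc1* (NCBI Gene 20969, chr12:8771396-8793716, plus strand), the syndecan best known from epithelia and plasma cells, had values of 5.11 and 5.12 in the reporter+ libraries and 5.16 and 4.94 in the reporter- libraries. Its SD over the 4 libraries was 0.10. Of plasma and B cell genes, *Cd79b* and *Ms4a1* were blank in all 4 libraries, *Cd79a* and *Mzb1* were blank in at least 1, and *Jchain* was listed in all 4, between -6.58 and -3.89. *Sdc2* (NCBI Gene 15529, chr15:32920723-33034721, plus strand), the syndecan of mesenchymal cells, had values of 5.20 and 4.71 in the reporter+ libraries and 5.09 and 4.76 in the reporter- libraries. In both populations the library numbered 3 was the lower one.

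*Sdc3* (NCBI Gene 20970, chr4:130792537-130826318, plus strand), which is prominent in nerve tissue and in growing cartilage, had values of 5.00 and 3.42 in the reporter+ libraries and 4.95 and 3.45 in the reporter- libraries. It was high in both libraries numbered 2 and low in both libraries numbered 3, and nearly the same in both populations at each number. The antisense genes *Gm12970* and *Gm26716*, whose exons overlap those of *Sdc3*, had no value in any library (blank or not listed as a symbol).

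Among the glypicans, *Gpc1* (NCBI Gene 14733, chr1:92831645-92860211, plus strand), a co-receptor for FGF2, had values of 4.86 and 3.85 in the reporter+ libraries and 5.18 and 3.69 in the reporter- libraries. It showed the same order as *Sdc3*, high in the libraries numbered 2 and low in those numbered 3. Exons of *Ankmy1* overlap those of *Gpc1* on the opposite strand, and its mean log2 value was -5.49. Libraries were stranded, and whether strand was used in the assignment of reads is not given in the sources used here.

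*Gpc4* (NCBI Gene 14735, chrX:52051007-52164923, minus strand), a glypican of stem and progenitor cells, had values of 2.75 and 2.79 in the reporter+ libraries and 2.96 and 2.77 in the reporter- libraries. With *Sdc1* it was the most even member, with an SD of 0.10 over the 4 libraries. *Gpc6* (NCBI Gene 23888, chr14:116924920-117979529, plus strand), a glypican of growth plate and mesenchyme, had values of 1.56 and 2.56 in the reporter+ libraries and 1.11 and 2.38 in the reporter- libraries. Its order was the opposite of that of *Sdc3* and *Gpc1*, with both libraries numbered 3 above both libraries numbered 2.

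*Gpc2* (NCBI Gene 71951, chr5:138273657-138280026, minus strand), best known from the developing nervous system, was low. Its values were 0.12 and 0.70 in the reporter+ libraries and 0.03 and 0.63 in the reporter- libraries, between percentiles 34.2 and 40.2. The predicted gene *Gm43720* shares exons with it on the same strand and had no value (blank or not listed as a symbol), so that reads of the 2 cannot be told apart. *Gpc3* (NCBI Gene 14734, chrX:52272426-52613974, minus strand), the neighbour of *Gpc4*, was blank in both libraries numbered 2. It was listed at -4.59 in the reporter+ library numbered 3 and at -5.62 in the reporter- library numbered 3. *Gpc5*, the remaining glypican of the mouse and no member here, had 1 value, -8.47 in the reporter+ library numbered 3.

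**Figure D1:**
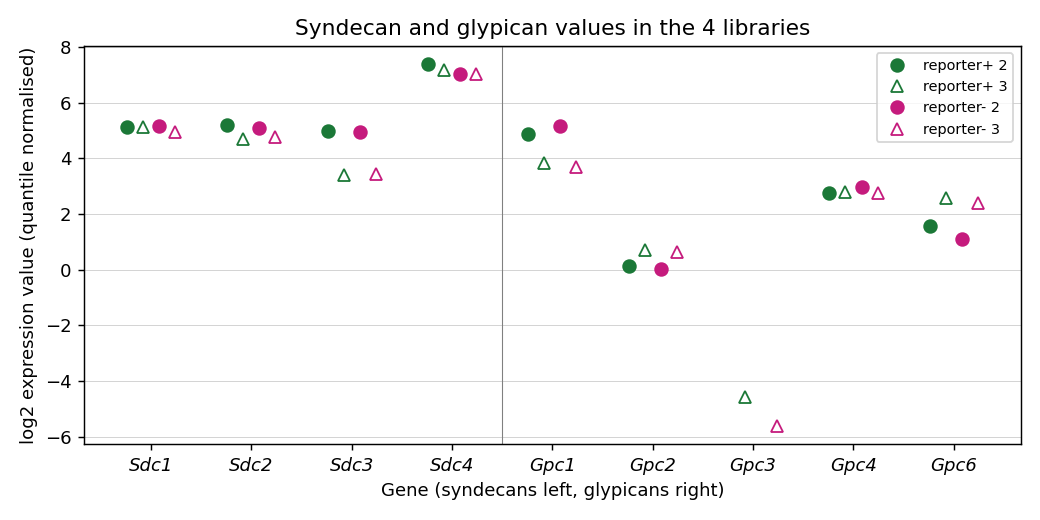
Log2 expression values of the 9 members (y axis, quantile normalised) by gene (x axis), with 1 point per library, green for reporter+ and pink for reporter-, filled circles for number 2 and open triangles for number 3. *Sdc4* lies between 7.02 and 7.39, *Sdc3* and *Gpc1* split by number and not by population, and *Gpc3* has 2 points only.

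The mean log2 value over the 4 libraries fell from *Sdc4* (7.16) through *Sdc1* (5.08), *Sdc2* (4.94), *Gpc1* (4.39), *Sdc3* (4.20), *Gpc4* (2.82) and *Gpc6* (1.90) to *Gpc2* (0.37). The unit under the logarithm is not stated. The lowest values of the table fell with transcript length, as values per length would, although not evenly. In the reporter+ library numbered 2 the 1st percentile was -7.12 for genes with transcripts of 500 to 1000 bases and -8.96 for those of 8000 to 16000 bases. When the log2 of the length of the longest transcript in kilobases was also subtracted, the order was the same, from 5.86 for *Sdc4* and 3.43 for *Sdc1* to -0.15 for *Gpc6* and -1.72 for *Gpc2*. *Sdc1* and *Sdc2* exchanged places between libraries, as did *Sdc3* and *Gpc1*, and in the reporter- library numbered 2 *Gpc1* was above both *Sdc1* and *Sdc2*. These neighbours were not ordered beyond the spread of the libraries. *Sdc4* was above all other members in all 4 libraries, and *Gpc2* was the lowest of the 8 in all 4.

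On the linear scale, and if the deposited values are per length, *Sdc4* made up 61.8% and 67.0% of the summed syndecan values in the reporter+ libraries numbered 2 and 3 and 56.7% and 65.3% in the reporter- libraries. The share of *Sdc3* was 11.8% and 13.3% in the libraries numbered 2 and 4.93% and 5.50% in those numbered 3. *Gpc1* held 73.0% and 76.8% of the summed glypican values in the libraries numbered 2 and 49.8% and 48.6% in those numbered 3. *Gpc6* held 7.42% and 4.57% at number 2 and 20.4% and 19.7% at number 3. The make-up of the glypicans thus followed the number of the library in both populations. The log2 of the summed values was 8.08 and 7.76 in the reporter+ and 7.86 and 7.63 in the reporter- libraries for the syndecans, and 5.32 and 4.85 against 5.56 and 4.72 for the glypicans. Both sums were lower in the libraries numbered 3 than in those numbered 2.

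**Figure D2:**
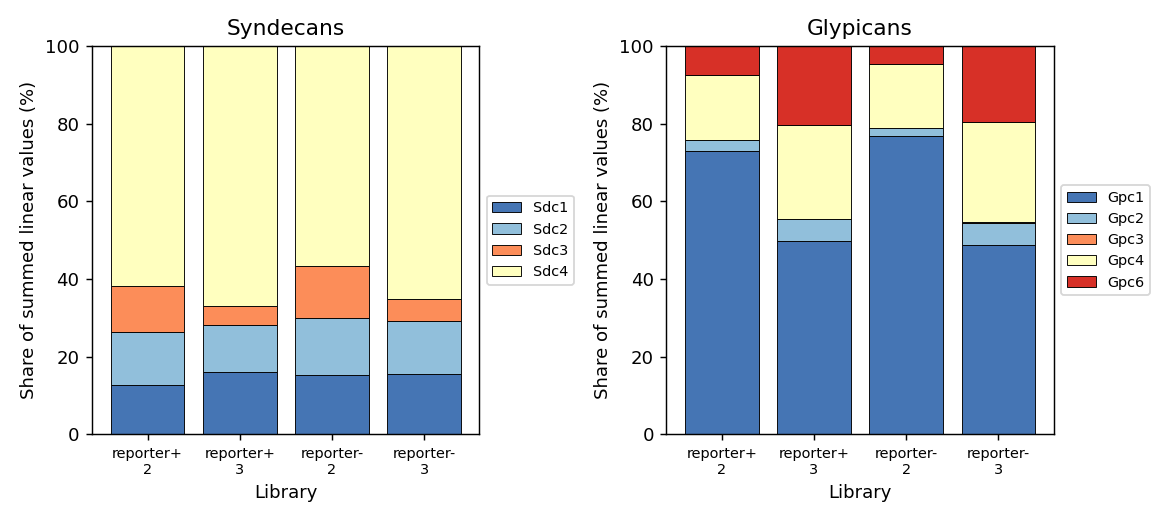
Share of each gene in the summed linear values of its family (y axis, percent) in the 4 libraries (x axis), syndecans on the left and glypicans on the right. *Sdc4* is the largest part of the syndecans, with 56.7% to 67.0%, and the *Gpc6* part of the glypicans is larger in both libraries numbered 3 (20.4% and 19.7%) than in those numbered 2 (7.42% and 4.57%).

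The comparison of the populations asks whether reporter+ periosteal cells differ from reporter- cells in these surface proteoglycans. The log2 fold change is the mean of the reporter+ libraries minus the mean of the reporter- libraries, with its standard error (SE) and 95% interval from limma, over the 14415 genes. No member passed the test between the populations. The Benjamini-Hochberg adjusted p was 1 for each of the 8 members tested and for every other gene tested, so that the calls were 0 of 8 members against 0% of all genes. At an unadjusted p under 0.05 they were again 0 of 8, against 131 genes or 0.909%. The exact two-sided permutation test of 2 libraries against 2 cannot give a p below 0.333.

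Without a block, *Sdc4* came closest to a difference. Its log2 fold change was 0.25 (SE 0.18, 95% interval -0.23 to 0.74, unadjusted p = 0.229 in limma), or 1.19-fold. With the library number as a block, the unadjusted p in limma was 0.092 for *Sdc4* and smaller for *Gpc6* (0.0811). The reporter+ library of *Sdc4* was higher by 0.34 at number 2 and by 0.17 at number 3. *Sdc4* was the only member of the 8 whose populations did not overlap. Over all genes, reporter+ was above reporter- without overlap in 7.59% and below it in 8.10%, against 1 and 0 of the members.

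*Sdc1* had a log2 fold change of 0.06 (95% interval -0.34 to 0.46), *Sdc2* of 0.03 (-0.60 to 0.66) and *Sdc3* of 0.01 (-1.96 to 1.98). The interval of *Sdc3* was wide in this fit without a block, with libraries that differed by number within each population. A 2-fold difference either way lay inside that interval. With the library number as a block, the SE of *Sdc3* was 0.12 instead of 0.74. Within a number, the reporter+ library of *Sdc3* was 0.05 higher at number 2 and lower at number 3 (-0.03) on the log2 scale. For *Sdc1* the differences were -0.06 and 0.17, and for *Sdc2* 0.12 and -0.05, so that these 3 syndecans did not keep one direction.

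*Gpc6* had the largest log2 fold change of the members, 0.32 (SE 0.57, 95% interval -1.20 to 1.83), with 0.45 at number 2 and 0.18 at number 3. *Gpc2* had 0.08 (-0.94 to 1.09), with 0.09 and 0.06 within the numbers. *Gpc1* had -0.08 (-1.72 to 1.57) and *Gpc4* -0.09 (-0.52 to 0.34), and both were lower in the reporter+ library at number 2 (-0.32 and -0.21) and higher at number 3 (0.16 and 0.03). *Gpc3* was 1.03 higher in the reporter+ library at number 3, with no replicate and at values near the bottom of the scale.

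Reporter+ was higher at both numbers for 3 of the 8 members, *Sdc4*, *Gpc2* and *Gpc6*, and lower at both for 0, against 22.1% and 24.8% of all genes. The log2 fold change was positive for 6 of the 8, with a median of 0.05 beside a median of 0.00 over all genes. With 1 library left out in turn, *Sdc4* stayed higher in reporter+ (0.15 to 0.36), and the direction of the 7 other members turned at least once. Leaving out a library leaves the numbers unbalanced between the populations.

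**Figure D3:**
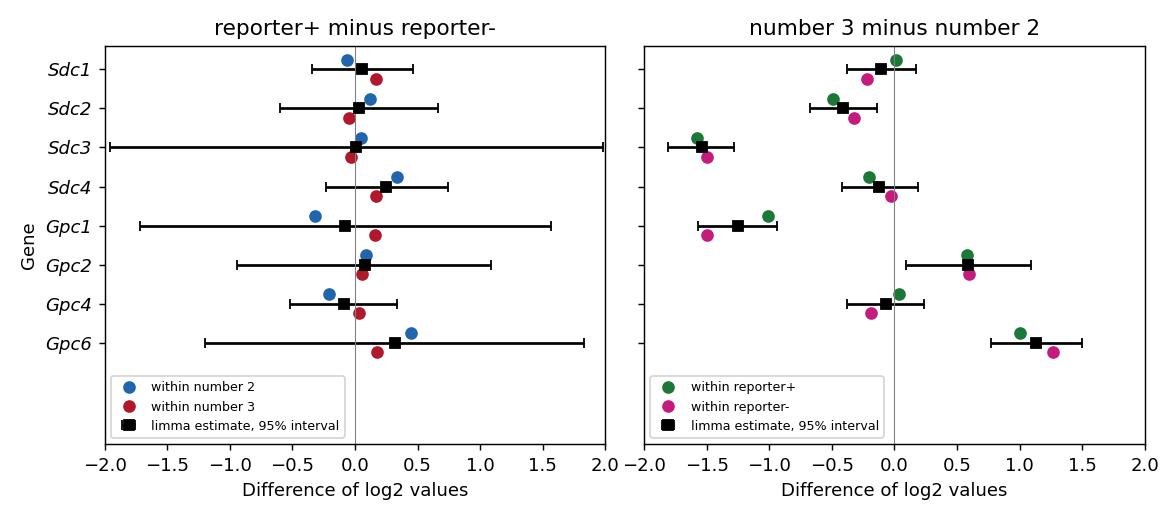
Differences of log2 values (x axis) for the 8 members with 4 values (y axis), reporter+ minus reporter- on the left and number 3 minus number 2 on the right. Squares and bars are the limma estimate and its 95% interval, and circles the differences within a number or within a population. The fit on the left has no block and that on the right has the population as a second term, so that interval widths cannot be compared between the panels. All 8 intervals on the left include 0, and those of *Sdc3* (-1.81 to -1.28), *Gpc1* (-1.57 to -0.94) and *Gpc6* (0.77 to 1.50) on the right lie far from it.

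The libraries numbered 3 differed from those numbered 2 in 4 of the 8 members with 4 values. *Sdc3*, *Gpc1* and *Sdc2* were lower and *Gpc6* higher. What the number stands for (a preparation, a culture or a run) is not given in the labels, so that the source of the difference cannot be told apart. The difference was fitted in limma with the population as a second term, and 4 of 8 members had an adjusted p under 0.05, against 3065 genes or 21.3% of all genes. Of the members, 3 were lower and 1 higher in number 3, against 9.79% and 11.5% of all genes.

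*Sdc3* was lower at number 3 (log2 difference -1.54, SE 0.12, 95% interval -1.81 to -1.28, adjusted p = 6.01e-05 in limma), so that number 2 was 2.91-fold higher. It was -1.58 in reporter+ and -1.50 in reporter- cells. *Gpc1* differed by -1.25 (95% interval -1.57 to -0.94, adjusted p = 0.000486 in limma), a 2.39-fold higher level at number 2. *Sdc2* differed by -0.41 (-0.67 to -0.14, adjusted p = 0.0379 in limma). *Gpc6* went the other way, with 1.13 (0.77 to 1.50, adjusted p = 0.00152 in limma) or a 2.20-fold higher level at number 3.

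These calls depended on the model of the variance. When the variance was not fitted as a trend on the mean, 0 of 8 members and 0 genes of the table had an adjusted p under 0.05, with limma adjusted p-values of 0.0607 for *Sdc3*, 0.077 for *Gpc6*, 0.085 for *Gpc1* and 0.216 for *Sdc2*. The unadjusted p was still under 0.05 for 4 members and 3909 genes. The call of *Sdc2* was also lost with a pseudocount of 1 (adjusted p = 0.0719 in limma) or 0.1 (0.0568), and without genes of a mean below 0 (0.0567).

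*Gpc2* was 0.59 higher at number 3 (adjusted p = 0.0892 in limma). *Sdc1*, *Sdc4* and *Gpc4* differed by -0.11, -0.12 and -0.07, with adjusted p-values of 0.58, 0.586 and 0.743 in limma. Both libraries numbered 3 lay above both numbered 2 for *Gpc2* and *Gpc6* and below them for *Sdc2*, *Sdc3* and *Gpc1*. Over all genes, 36.4% lay above and 28.8% below. The difference between numbers was larger than that between populations in 6 of 8 members, all but *Sdc4* and *Gpc4*, against 75.7% of all genes.

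The median absolute difference of the 8 members was 0.16 between the populations at number 2 and 0.11 at number 3. It was 0.54 between the reporter+ libraries and 0.46 between the reporter- libraries. Over all genes these medians were 0.15, 0.20, 0.35 and 0.34.

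**Figure D4:**
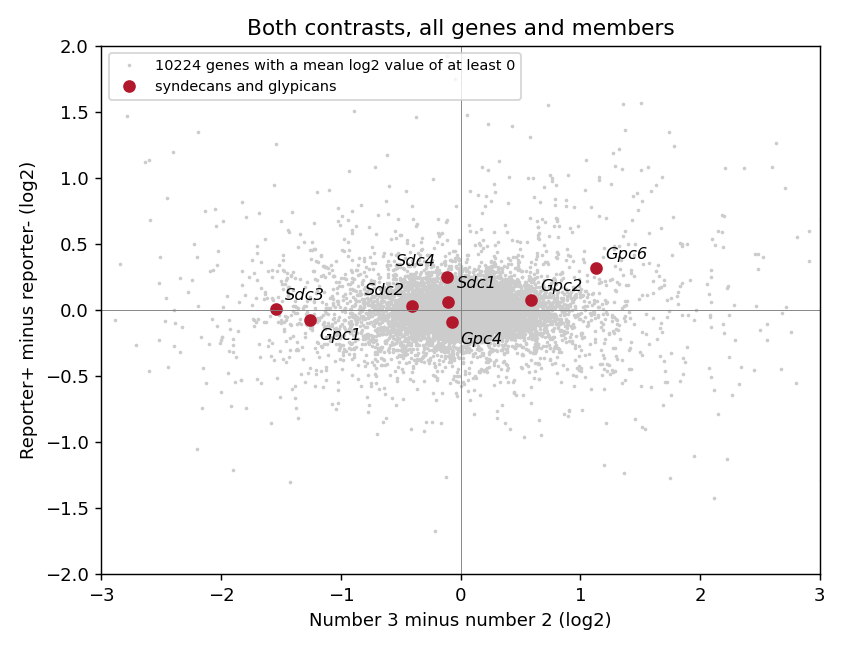
Reporter+ minus reporter- (y axis, log2) against number 3 minus number 2 (x axis, log2) for the 8 members (red) and the 10224 genes averaging 0 or more on the log2 scale (grey, 50 of them outside the axes). *Sdc3*, *Gpc1* and *Gpc6* lie at -1.54, -1.25 and 1.13 on the x axis and at 0.01, -0.08 and 0.32 on the y axis.

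Markers of other cell types also differed between the numbers, where 21.3% of all genes were called, 11.5% higher and 9.79% lower at number 3. The chondrocyte genes *Acan*, *Col2a1* and *Sox9* were lower at number 3, by -3.54, -3.14 and -0.73 (adjusted p-values of 0.00121, 0.000818 and 0.0123 in limma), which made 3 of the 4 tested of a list of 6. The fourth, *Comp*, which is also made by tendon and fibroblasts, differed by 0.18 (adjusted p = 0.513 in limma). The summed log2 level of that list, most of it from *Comp* (8.09, 7.97, 7.06 and 7.53 in the reporter+ 2 and 3 and reporter- 2 and 3 libraries), was 8.15 and 7.98 in the reporter+ libraries and 7.21 and 7.57 in the reporter- libraries. Of the 10 stromal markers, *Postn* and *Col3a1* were higher at number 3, by 3.03 and 1.03 (adjusted p-values of 2.74e-05 and 0.0103 in limma), and *Col1a2*, *Prrx1* and *Thy1* lower, by -0.54, -0.54 and -0.53. The median difference of that list was -0.29. Of the 12 macrophage markers 7 were higher at number 3 and 0 lower, among them *Itgam* (1.16), *Adgre1* (1.05), *Mrc1* (0.90) and *Csf1r* (0.88). Of the 7 smooth muscle markers 2 were called, *Acta2* and *Tagln*, higher by 1.75 and 1.20. Among those not called, *Cnn1* and *Actg2* had differences of 0.88 and 0.47, and *Myh11*, *Des* and *Lmod1* of -0.09, -0.76 and -0.26. The median difference of the smooth muscle list was 0.47. Of the 6 endothelial markers tested 1 was called, *Tek*, higher by 3.32. Among those not called, *Pecam1*, *Kdr* and *Emcn* had 0.38, 0.65 and 1.16, and *Cdh5* and *Vwf* -0.17 and -0.73. The median difference of the endothelial list was 0.52. The part of these cells in the values of *Sdc3* and *Gpc6* was not tested. In bulk samples fewer cells of a type and less RNA per cell cannot be told apart.

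All 12 of 12 macrophage markers had higher values in reporter+, 8 of them without overlap (7.59% of all genes). Their summed log2 level was 7.94 and 8.17 in the reporter+ and 6.58 and 7.54 in the reporter- libraries. Most of that sum came from *Lyz2*, with 7.65 and 7.88 in the reporter+ and 6.27 and 7.25 in the reporter- libraries. None of the 12 passed the adjusted test. With the library number as a block, *C1qb* and *Tyrobp* (both adjusted p = 0.0437 in limma) and the stromal marker *Lum* (0.0121) passed as higher in reporter+. The smooth muscle marker *Actg2* (0.0473 in limma) passed as lower, and none did with the block and no variance trend. Of the 10 stromal markers, 4 had higher and 6 lower values in reporter+, with a median log2 fold change of -0.06. Among them *Lum* (1.83) and *Dcn* (1.39) were higher without overlap (7.59% of all genes). The gene of the CD45 antigen used in the sort, *Ptprc*, was listed at -1.28, -0.39, -2.30 and -1.22 (reporter+ 2 and 3, then reporter- 2 and 3). *Sdc4* had the same order of the populations, and the part of macrophages in it was not tested. The 7 smooth muscle markers had lower values in reporter+, 4 without overlap (8.10% of all genes), with summed levels of 2.74 and 4.70 against 4.65 and 5.34. Of the 6 endothelial markers tested, 4 were below reporter- without overlap, *Pecam1* (log2 fold change -3.19), *Cdh5* (-4.26), *Emcn* (-3.44) and *Kdr* (-1.82), at means of -3.14 and less. The summed endothelial level, at number 3 mostly *Tek* (0.05 and 1.10), was -1.66 and 0.29 in the reporter+ and 0.29 and 1.96 in the reporter- libraries.

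The pathway around the members was followed in 8 lists with 93 genes, of which 82 were tested. None of the 82 passed the adjusted test between the populations, and 1 had an unadjusted p under 0.05 in limma, beside 0.909% of all genes. Values were higher in reporter+ for 31 and lower for 51, with a median log2 fold change of -0.04. That median is small beside the spread of all genes, with a median of 0.00 and a median absolute log2 fold change of 0.12. Between the numbers, 28 of 82 passed the limma test with a trend, 14 higher and 14 lower at number 3, against 21.3%, 11.5% and 9.79% of all genes, and as for the members none did without the trend.

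Of the other heparan sulfate proteoglycans, 6 of 8 tested genes differed between the numbers, against 21.3% of all genes. *Hspg2* (perlecan), *Agrn* (agrin), *Col18a1* (collagen XVIII) and *Cd44*, which carries heparan sulfate in some splice forms, were lower at number 3, by -0.70, -0.63, -0.74 and -0.58. *Nrp1* (neuropilin-1) and *Srgn* (serglycin, the proteoglycan of secretory granules) were higher, by 0.94 and 3.59. *Srgn* had values of -0.06 and 3.31 in the reporter+ and -0.88 and 2.93 in the reporter- libraries. Between the populations *Srgn* and *Col18a1* had the largest log2 fold changes of the tested genes of this list, 0.60 and -0.55, neither of which passed the test.

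None of the enzymes that start and extend the chain passed the test between the populations. *Xylt1*, which starts the chain, differed by -0.42 at number 2 and 0.49 at number 3 (log2 fold change 0.03, SE 0.42). *Ext1*, a subunit of the chain polymerase, had values of 4.56, 4.45, 4.46 and 4.52 in the same order of libraries. Among elongation genes averaging 0 or more, the largest log2 fold changes were 0.07 for *Extl2* and -0.04 for *Extl3*, while the low *Extl1* (mean -5.63) had -0.65. They were -0.11 for *Fam20b*, the xylose kinase, and -0.09 for *B3galt6* among the 7 linker genes. *Extl3* was 0.42 higher and *Pxylp1*, the xylose phosphatase, lower at number 3 (-0.51), as was *Extl1* (-2.71).

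Among the sulfotransferases and the epimerase, 11 of 16 genes were tested. *Ndst1*, the main N-deacetylase/N-sulfotransferase, had values of 3.30 and 3.76 in the reporter+ and 3.46 and 3.69 in the reporter- libraries. *Hs2st1*, the 2-O-sulfotransferase, was higher in reporter+ without overlap (3.10 and 3.16 against 2.99 and 2.77), as were 7.59% of all genes. Its log2 fold change was the largest of the genes averaging 0 or more, 0.25 (unadjusted p = 0.188 in limma). *Hs3st3b1* had -0.20, and the low *Ndst3* and *Hs6st3* (means of -2.85 and -7.17) had -0.44 and -0.31. The 6-O-sulfotransferases went in opposite directions between the numbers, with *Hs6st1* 1.37 higher and *Hs6st2* lower at number 3 (-1.36).

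The extracellular 6-O-endosulfatases trim the finished chain. *Sulf1* had values of 4.70 and 5.42 in the reporter+ and 5.10 and 4.66 in the reporter- libraries, and *Sulf2* 4.66 and 4.84 against 4.91 and 5.50. Reporter+ was below reporter- without overlap for *Sulf2*, as for 8.10% of all genes, with a log2 fold change of -0.45 (unadjusted p = 0.131 in limma). Heparanase (*Hpse*) had 0.54, with values of 0.76 and 1.28 against 0.09 and 0.88. The lysosomal enzymes *Ids* and *Naglu* were lower at number 3, by -0.81 and -0.45.

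The gene with an unadjusted p under 0.05 was *Mmp9*, a protease that can shed syndecan ectodomains, and 1 of 82 is close to the share of all genes. *Mmp9* had values of 3.21 and 3.89 in the reporter+ libraries and 2.18 and 1.41 in the reporter- libraries. Its log2 fold change was 1.75 (SE 0.37, unadjusted p = 0.00719, adjusted p = 1 in limma), with 1.03 at number 2 and 2.48 at number 3. *Mmp9* is also made by myeloid cells, and the macrophage markers had higher values in the reporter+ libraries too. Unlike that of *Mmp9*, the difference of each of the 12 macrophage markers was smaller at number 3. It was 1.38 at number 2 and 0.62 at number 3 for *Lyz2*, and 1.50 and 0.76 for *C1qa*. The part of these cells in *Mmp9* was not tested. *Pcsk5*, a proprotein convertase, had a log2 fold change of 1.08 and was 2.37 higher at number 3. *Mmp2* was 1.28 higher and *Timp3*, an inhibitor of sheddases, lower at number 3 (-2.44). *Notum* had values of 1.00, 0.79, 0.65 and 0.76.

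Of the proteins that bind the syndecan tail, *Sdcbp* (syntenin) had values of 5.92 and 5.75 in the reporter+ and 5.85 and 5.39 in the reporter- libraries, a log2 fold change of 0.22. *Tiam1*, an activator of Rac, had -0.26, with 1.23 and 1.25 against 1.46 and 1.54. *Cask* and *Prkca* were lower at number 3, by -0.52 and -0.69. Among the 19 tested ligands that bind heparan sulfate, the largest log2 fold changes at a mean of 0 or more were -0.54 for *Fn1* (fibronectin) and 0.48 for *Mdk* (midkine), and the low *Fgf1* (mean -3.82) had -0.92. Between the numbers 8 of the 19 passed, against 21.3% of all genes, with *Fgf2*, *Fgf10*, *Hgf*, *Mdk*, *Cxcl12* and *Wnt5a* higher at number 3 and *Ptn* and *Pdgfa* lower. *Cxcl12*, whose product is held at the cell surface by heparan sulfate, was 1.77 higher, and *Ptn* (pleiotrophin) lower (-2.10).

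The genes whose pattern was most like that of *Gpc6*, the member with the largest log2 fold change, were found by the root mean square difference of the 4 values after the mean of each gene was subtracted. Among the 10224 genes averaging 0 or more these were *Kcnab1* (0.055), *Col3a1* (0.0689) and *Cdh11* (0.0721). *Cdh11* had values of 5.43 and 6.52 in the reporter+ and 5.05 and 6.45 in the reporter- libraries. With 4 libraries, likeness of this kind is a description only.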

How the data were processed

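Total RNA of 2 PDGFRα reporter+ and 2 PDGFRα reporter- samples was sequenced by the authors as stranded paired-end libraries. The submitters' processing notes name bcl2fastq 2.17.1.14, Partek 7.0 and GRCm38.p6. The aligner, annotation, counting and filters are not given in the sources used here. The authors deposited quantile-normalised log2 values, 1 per gene symbol and library, with blanks where no signal was found, so that depth and counting error are unknown. Columns were assigned to populations by their headings.

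Genes with values in all 4 libraries went into a two-sided moderated linear model (R 4.3.3, limma 3.58.1, with lmFit followed by trended eBayes), with the population as the only term and Benjamini-Hochberg adjustment over 14415 genes at a threshold of 0.05. Numbers were compared with the population as a second term. The population model was checked on simulated data with independent noise and no difference between the numbers. That check therefore does not cover libraries that differ by number, as these do. Groups were said not to overlap when every value of one lay above every value of the other. Python 3.11.15, pandas 2.3.3 and numpy 2.4.6 served for tables, and matplotlib 3.10.9 for plots. Positions and promoters are from RefSeq (GRCm38.p6), and transcript lengths and overlaps from GENCODE M21.

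Members, lists and tests were chosen with earlier results of these data known. The genes named are all members, per pathway list the 2 with the largest absolute log2 fold change at a mean of at least 0, *Gpc5*, *Sulf1*, *Sulf2*, *Notum*, *Ext1*, *Ndst1* and *Sdcbp*, and the 3 genes most like the member with the largest log2 fold change. Other genes of the lists were named after their values were seen. Alternatives were other variance models, a block, pseudocounts of 1 and 0.1, centring, a filter on low means and leaving out each library. Marker lists for skeletal muscle, Schwann, erythroid and osteoblast cells were also examined. Between the populations 0 genes of these passed the test, and between the numbers 0, 1, 0 and 2 genes did.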

Additional observations from a re-analysis of the deposited data

How the results depend on the processing

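The pseudocounts and the centring left the direction of the 8 members between the populations as it was in 24 of 24 values. The block, the variance models and the filter cannot move a log2 fold change of a gene with 4 values. Under all alternatives the smallest adjusted p of a member was 0.913 in limma (*Gpc6*, with the block). With the library number as a replicate block, 22 genes of the table were higher and 7 lower in reporter+ at an adjusted p under 0.05, none of them a member. The deviations of libraries with the same number from their population mean had a correlation of 0.681 across genes, but 2 pairs without a label of shared origin do not establish a pairing. With the block and no variance trend, a setting added after seeing the data, 0 genes were called, with 941 at an unadjusted p under 0.05 in limma. With blanks set to the lowest value, *Gpc3* had a log2 fold change of 0.52.

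With 1 library left out in turn, a member kept its direction in 20 of 32 values, and the numbers were then unbalanced between the populations. The lone library of a population was assumed to vary like the others. The number of members higher in reporter+ ranged from 3 to 6 and their median log2 fold change from -0.09 to 0.18. The log2 fold change ranged from -0.05 to 0.17 for *Sdc1*, -0.22 to 0.28 for *Sdc2*, -0.78 to 0.80 for *Sdc3*, -0.83 to 0.67 for *Gpc1*, -0.23 to 0.38 for *Gpc2*, -0.19 to 0.01 for *Gpc4* and -0.32 to 0.95 for *Gpc6*.

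Between the numbers, 3065 genes and 4 members were called with a variance trend, 0 genes and 0 members without it, and 1825 genes with a pseudocount of 1. The cause of these shifts was not tested. Depth is unknown, and differences of *Gpc3* and other genes near the bottom of the scale are limited by it.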
